A study of Mus musculus with 8 samples.

Results

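m6A peaks were examined on 9 genes that set the Ras switch or turn it off: the Ras GTPases *Nras* and *Hras*, the exchange factors *Sos1* and *Sos2*, the GTPase-activating proteins *Nf1*, *Rasa1* and *Rasa2*, and the inhibitors *Spred1* and *Spred2*. The genes were chosen by name, with earlier results of these data known, from the 21951 protein-coding genes of GENCODE M21. A peak was assigned to the gene with which it shared most exonic bases on the same strand. Of the 9 genes, 7 had a peak in at least 1 list, against 7055 of all genes (32.1%). Given how the genes were chosen, these shares are not a test of enrichment. The MeRIP-Seq data came from BMDMs (bone marrow-derived macrophages) of 8-week-old C57BL/6 mice, grown for 7 days with M-CSF at 40 ng/mL. Both groups carried the floxed allele, *Mettl3*fl/flLyz2+/+ in the 2 WT samples and *Mettl3*fl/flLyz2cre/+ in the 2 KO samples, which the labels call wild type and Mettl3-/-. In this model Cre is driven by *Lyz2* and deletes *Mettl3* in myeloid cells, and the deletion need not reach every cell of a culture. Each sample gave 1 library of m6A IP and 1 of input RNA, 8 libraries in all, and 1 deposited peak list (WT-1 and WT-2, KO-1 and KO-2). Whether a sample was 1 mouse or a pool is not stated in the labels, so the spread between samples of a genotype may be partly technical.

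Ras proteins are molecular switches that signal to the RAF, MEK and ERK kinases while bound to GTP. SOS proteins load them with GTP, GTPase-activating proteins such as neurofibromin (*Nf1*) and p120 RasGAP (*Rasa1*) speed up GTP hydrolysis, and SPRED proteins bring neurofibromin to the membrane and restrain the pathway. In macrophages this pathway runs downstream of the M-CSF receptor and other growth factor receptors. METTL3 is the catalytic subunit of the complex that writes m6A on mRNA, often at an A within GGAC and often near the stop codon. A listed peak marks a stretch with more reads in the m6A IP than in the input.

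The lists held between 6159 and 6684 peaks, on 4220 to 4485 genes each, and the median peak was 478 to 543 bp wide. The score of the peak caller was 3100 or more for 10.3% to 19.5% of the peaks of a list. Most of these peaks stood at exactly 3100, the highest score was 3233.06, and all of them were treated as a tied top class. The sequencing depth behind the lists is unknown. A missing peak is not a measured level of 0, since a lowly expressed transcript gives no peak either. *Mettl3* had no peak in any list, so the deleted gene does not check the genotypes. Of 8 macrophage markers 3 had a peak in some list, with *Mertk* in all 4 lists and *Csf1r*, *Cd68*, *Adgre1*, *Itgam* and *Lyz2* in none. Of the markers of other cells, 1 of 3 T cell genes (*Cd4*, in WT-1 and WT-2), 0 of 3 B cell genes, 0 of 3 neutrophil genes and 2 of 3 stromal genes had a peak, the stromal *Pdgfrb* in every list but KO-2. Peaks are not expression levels, and the part of other cells in the results was not tested.

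On the 9 genes together, WT-1 had 9 peaks, WT-2 and KO-1 had 10 each and KO-2 had 7. KO-2 was the lowest and KO-1 equalled the higher WT list, so the genotypes overlapped. The mean was 9.50 ± 0.707 peaks (SD, n = 2) in WT and 8.50 ± 2.12 peaks (SD, n = 2) in KO BMDMs, a difference smaller than the spread between the KO lists, and it changed sign to 0.5 without KO-2. *Sos1*, *Rasa1* and *Spred1* had a peak in all 4 lists, *Hras*, *Sos2* and *Nf1* in 3 lists, *Spred2* in both WT lists, and *Nras* and *Rasa2* in none. *Spred2* was thus the 1 gene of the 9 that each WT list held and each KO list lacked, and 0 of the 9 had the opposite pattern. Among all genes with a peak, these patterns held for 3.84% and 4.88%, and 30.4% had a peak in all 4 lists. With 2 lists per genotype, the two-sided exact permutation test cannot give a p below 0.33. The 36 peaks fell into 13 regions of overlapping peaks, with 5 regions found in all 4 lists, 4 in 3 lists, 0 in 2 lists and 4 in 1 list. No region was present in both WT lists alone or in both KO lists alone, where 3.32% and 6.19% of all 12350 regions were. On these genes, KO-2 shared least with WT-2 (Jaccard index 0.398), and the 5 other pairs of lists had an index between 0.479 and 0.526, the WT pair 0.510 and the KO pair 0.511. The plot of score position by gene shows which genes carried strong peaks in every list.

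**Figure D1:**
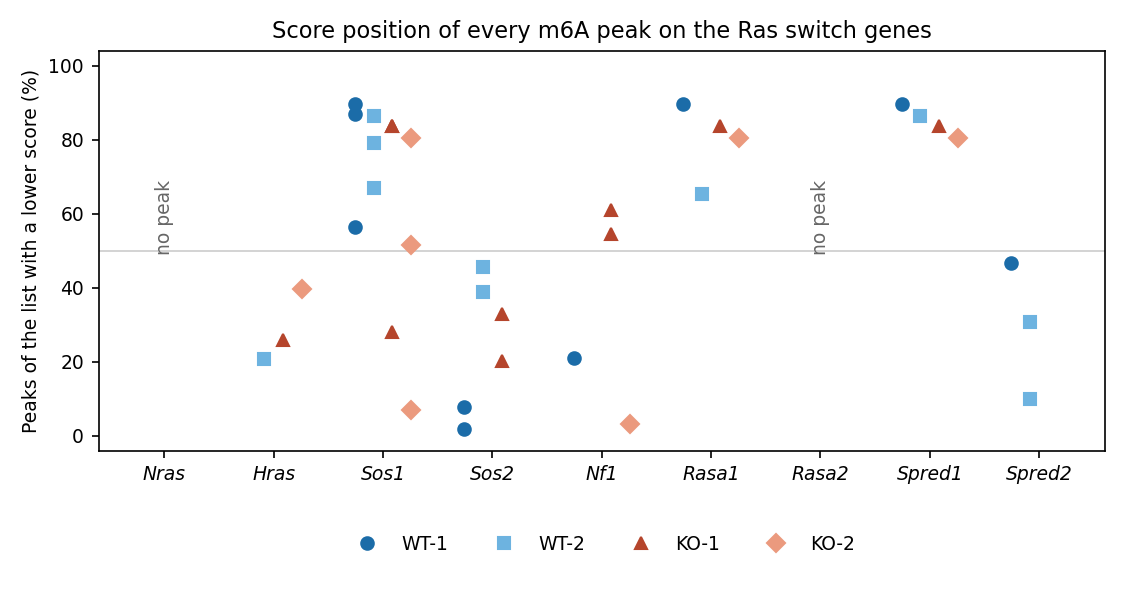
Each point is an m6A peak, placed by the percentage of the peaks of its list with a lower score (vertical axis), for the 9 genes (horizontal axis) and the 4 lists (colour and shape). *Spred1* and the exon 20 peak of *Sos1* stood at the top class of scores in all 4 lists. *Hras*, *Sos2* and *Spred2* stood below 50% in every list that had a peak, and *Nras* and *Rasa2* had no peak. Peaks with a score of 3100 are tied, and their height, 89.7% in WT-1 and 80.5% in KO-2, differs only with the share of lower-scoring peaks in the list.

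*Nras* (chr3:103058285-103067914, plus strand, GRCm38) had 0 peaks in each list. It encodes a Ras GTPase, and its longest coding transcript of 4470 bp held 10 GGAC sites, 2.24 per kb, a density above that of 16.0% of coding transcripts. *Hras* (chr7:141189105-141194005, minus strand) encodes another Ras GTPase, and its transcript of 2828 bp held 21 GGAC sites, 7.43 per kb, above 93.3% of transcripts. GGAC density did not order the 9 genes by their peaks: *Spred1*, at 1.83 GGAC per kb, and *Sos1*, at 2.49, were about as sparse as *Nras* and had peaks in all 4 lists. Across all transcripts the median was 4.0 GGAC per kb, against 4.08 in genes with a peak.

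*Hras* had no peak in WT-1 and 1 peak in each other list, in the same region, chr7:141190729-141191467, over its last coding bases. All 3 peaks began at the 5′ border of exon 5, 116 bp before the last CDS base, and ran over intron 5 into the 3′-UTR in exon 6, where 147 bp of the intron are exonic in another *Hras* transcript. The peak was 614 bp wide in WT-2 and 739 bp wide, with the same edges, in KO-1 and KO-2. The score exceeded that of 20.7% of the WT-2 peaks, 25.9% of the KO-1 peaks and 39.7% of the KO-2 peaks. The *Hras* peak was thus in the lower part of each list, and both KO peaks ended 475 bp beyond the last CDS base in the spliced transcript, against 350 bp in WT-2. The stretch between held 2 GGAC sites, 397 and 404 bp beyond the last CDS base, that no WT peak covered, and 4 sites of the region were under all 3 peaks.

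*Sos1* (chr17:80393751-80480453, minus strand) encodes the exchange factor that GRB2 brings to activated receptors. It had 3 peaks in each of the 4 lists, the most of the 9 genes in every list, in exon 10, exon 20 and around the stop codon in exon 22. The exon 20 peak, chr17:80406646-80406958, was 313 bp wide with the same edges and a score of 3100 in each list. It covered the whole 268 bp exon and 45 bp that are exonic in another transcript. Of the 1806 regions of the series with 1 peak in each list, 8.53% had the same edges in all lists. The peak held 1 GGAC site, at base 3251 of the CDS. *Sos2* (chr12:69583762-69681852, minus strand), its paralog, had 2 peaks in every list but KO-2, which had 0, in exon 10 and at the stop codon. It had no peak in exon 20.

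Exon 10 is 656 bp long and coding in both *Sos1* and *Sos2*, and aligned without a gap the exons were identical at 483 bases (73.6%). In *Sos1* the peak covered bases 1 to 493 of the exon in WT-1, 131 to 656 in WT-2 and 1 to 594 in both KO lists. In *Sos2* it covered the whole exon in WT-1 and KO-1 and bases 1 to 344 in WT-2. Peaks thus lay within this exon of both paralogs, and 363 bp of the *Sos1* exon and 344 bp of the *Sos2* exon were under every peak listed there. The *Sos1* exon held 4 GGAC sites and the *Sos2* exon 2, and the 2 *Sos2* sites aligned with *Sos1* sites at bases 110 and 460. These 4 aligned sites, printed with 10 bases on each side on the transcript strand and GGAC in capitals, show what the paralogs share under the peaks:
Sos1 base 110 (chr17:80434040-80434043): gaaggacattGGACagtgttgcaa
Sos2 base 110 (chr12:69617397-69617400): caaagatatcGGACagtgttgtaa
Sos1 base 460 (chr17:80433690-80433693): agaggatgctGGACgtaacggtgc
Sos2 base 460 (chr12:69617047-69617050): acagaatgctGGACtctgtgctgc
The site at base 110 was under every peak but that of WT-2 in *Sos1*, and under all 3 peaks in *Sos2*. The site at base 460 was under the peaks of all 4 lists in *Sos1* and of WT-1 and KO-1 in *Sos2*.

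**Figure D2:**
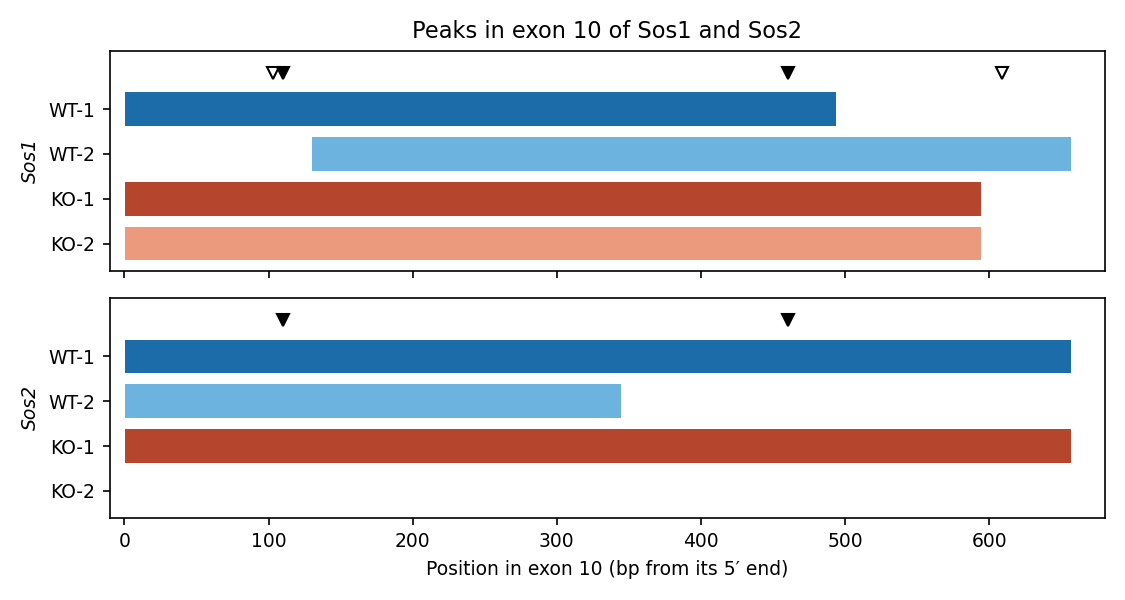
Bars show the bases of exon 10 under the peak of each list in *Sos1* (top) and *Sos2* (bottom), by position from the 5′ end of the exon in bp. Triangles mark GGAC sites, filled where both paralogs have GGAC at the aligned base, and KO-2 had no peak on *Sos2*.

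The exon 10 peak of *Sos1* had a higher score than 87.0% of the WT-1 peaks and 66.8% of the WT-2 peaks, a score of 3100 in KO-1, and a higher score than only 6.90% of the KO-2 peaks. The KO peaks thus had the same edges but far apart ranks, in the top class of scores in KO-1 and near the bottom of the list in KO-2. The *Sos2* exon 10 peak exceeded 7.86% of the WT-1 peaks, 45.5% of the WT-2 peaks and 33.0% of the KO-1 peaks. The *Sos2* stop codon peak exceeded 1.92%, 38.8% and 20.2% of the same lists. All 6 *Sos2* peaks thus lay in the lower-scoring 50% of their lists, and the gene had no peak left when the lists were restricted to the higher 50%. The stop codon peak of *Sos2* was 778 bp (WT-1) and 1335 bp (WT-2) wide in WT and 1016 bp wide in KO-1, with 237, 620 and 236 bp beyond the end of the longest coding transcript, in exons of other *Sos2* transcripts. The difference of *Sos2* in peak number, KO minus WT, was -1 (two-sided exact permutation test, p = 1) and was -2 without KO-1 and 0 without KO-2. Among the 205 other genes with a peak in every list but KO-2, *Lair1*, *Abcc1* and *Rundc1* were nearest to *Sos2* in exonic peak bases per list, at a Euclidean distance of 116, 339 and 503 bp.

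Around the *Sos1* stop codon, the peak was 849 bp (WT-1) and 715 bp (WT-2) wide in WT and 585 bp wide, with the same edges, in both KO lists. Both WT peaks were wider than both KO peaks, 782 ± 94.8 bp (SD, n = 2) against 585 ± 0 bp (SD, n = 2), and p was 0.33 by the two-sided exact permutation test, the smallest possible. The difference lay mainly at the 3′ end: the WT peaks ended 635 and 629 bp beyond the last CDS base and both KO peaks 393 bp beyond it. The stretch between held a GGAC site 447 bp beyond the last CDS base, under both WT peaks and no KO peak. The score exceeded that of 56.4% of the WT-1 and 79.1% of the WT-2 peaks, and of 28.1% of the KO-1 and 51.5% of the KO-2 peaks. Both WT peaks thus also ranked above both KO peaks within their lists (two-sided exact permutation test, p = 0.33). By the score itself the genotypes overlapped, at 625.40 in WT-1 and 824.25 in KO-2. Both WT ranks were above both KO ranks in 9.19% of the 1806 regions with 1 peak in each list. The opposite order, held by 19.0%, was found in 0 of the 5 such regions on the 9 genes.

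*Nf1* (chr11:79339693-79581612, plus strand) encodes neurofibromin, which switches Ras off, and has the longest transcript of the 9, 11917 bp with 54 GGAC sites. It had 1 peak in WT-1 and none in WT-2, and 2 peaks in KO-1 and 1 in KO-2. The difference in peak number was 1.0, with p = 0.667 by the two-sided exact permutation test, and WT-1 and KO-2 had the same number. In the last exon, WT-1 and KO-2 had peaks with the same 5′ edge, 139 bp before the last CDS base, that ended 758 and 765 bp beyond it. The KO-1 peak began 438 bp beyond the last CDS base and ended 1599 bp beyond it, so it lay wholly in the 3′-UTR and the 3 peaks shared only 18.5% of the region. KO-1 also had a peak of 304 bp in exon 37, chr11:79535732-79536035. The scores exceeded those of 21.1% of the peaks in WT-1 and 3.28% in KO-2, and 54.5% (last exon) and 60.9% (exon 37) in KO-1. The WT-1 and KO-2 peaks were thus more alike in place and rank than the KO-1 and KO-2 peaks. Of the 14 GGAC sites under an *Nf1* peak, 7 were under a KO-1 peak alone and 5 under the peaks of WT-1 and KO-2.

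*Rasa1* (chr13:85214780-85289130, minus strand) encodes p120 RasGAP and had 1 peak per list in its last exon, exon 25, within chr13:85215192-85216156. The peak was 744 bp (WT-1) and 688 bp (WT-2) wide in WT and 735 bp (KO-1) and 965 bp (KO-2) wide in KO BMDMs. Its score was 3100 in every list but WT-2, where it exceeded that of 65.2% of the peaks. The widths overlapped between genotypes, 716 ± 39.6 bp (SD, n = 2) in WT and 850 ± 163 bp (SD, n = 2) in KO (two-sided exact permutation test, p = 0.667). At the 3′ end both KO peaks ended 915 bp beyond the last CDS base and the WT peaks 868 and 750 bp beyond it. No *Rasa1* peak held GGAC. The *Rasa1* 3′-UTR held 0 GGAC sites and its CDS 13, and the 4 peaks lay in the 3′-UTR apart from 50 bp of the KO-2 peak. Of all assigned peaks at least as wide as the narrowest *Rasa1* peak, 2.39% held no GGAC. The 570 bp shared by the 4 lists held 20 matches to DRACH, the wider consensus around m6A, or 35.1 per kb against 22.7 per kb over all assigned peaks. All 20 matches stand in this strong peak that lacks GGAC, and they were not ranked. The 4 that read GAACT or AGACT are shown as examples, in capitals, on the transcript strand with 10 bases on each side:
Rasa1 +305 (chr13:85215798-85215802): actgtgtcttGAACTttgaaaatat
Rasa1 +367 (chr13:85215736-85215740): cttggaaaagGAACTatgaaatcaa
Rasa1 +577 (chr13:85215526-85215530): attctttctgGAACTgttgaaagac
Rasa1 +669 (chr13:85215434-85215438): gaattgtcaaAGACTgtatttagat
The number after the plus sign is the distance in bp from the last CDS base to the base that opens the match. A match is a description of the sequence and not a mapped m6A site, since peaks are wider than the motif by far. *Rasa2* (chr9:96539300-96631617, minus strand), a further Ras GTPase-activating protein, had 0 peaks in each list, with 17 GGAC sites in its transcript of 5813 bp.

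*Spred1* (chr2:117121374-117182279, plus strand) encodes an inhibitor that recruits neurofibromin, and had 1 peak per list with a score of 3100 in each. Every peak began at the 5′ border of exon 7, the last exon, 644 bp before the last CDS base, and they differed in the 3′ end alone. The peak was 1673 bp (WT-1) and 1356 bp (WT-2) wide in WT and 887 bp (KO-1) and 687 bp (KO-2) wide in KO BMDMs. Both WT peaks were wider than both KO peaks, with a mean of 1514 ± 224 bp (SD, n = 2) against 787 ± 141 bp (SD, n = 2), a ratio of 1.92 and a difference larger than the spread within either genotype (two-sided exact permutation test, p = 0.33). The WT peaks ended 1028 and 711 bp beyond the last CDS base, and the KO peaks 242 and 42 bp beyond it. Across the 1806 regions with 1 peak in each list, the median difference was 36.5 bp, with KO wider, and 6 regions, *Spred1* among them, had a difference of -727.5 bp or below. The 6 GGAC sites under the *Spred1* peaks, in transcript order with GGAC in capitals, show which sequence the shorter KO peaks left out:
Spred1 -537 (chr2:117177409-117177412): acagacatccGGACatgtggaaaa
Spred1 -273 (chr2:117177673-117177676): ggaaatgccaGGACgctccagatc
Spred1 +200 (chr2:117178146-117178149): gcatgttctgGGACagatcacaga
Spred1 +327 (chr2:117178273-117178276): ctaggtgatgGGACtttttaaaga
Spred1 +354 (chr2:117178300-117178303): gaattctttaGGACattaactaaa
Spred1 +380 (chr2:117178326-117178329): gtgcactaagGGACagtgatttca
Distances are from the last CDS base, negative in the CDS. The 2 coding sites were under the peaks of all 4 lists, the site at +200 under every peak but that of KO-2, and the 3 sites from +327 to +380 under both WT peaks and no KO peak. Why the peaks ended where they did was not tested.

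**Figure D3:**
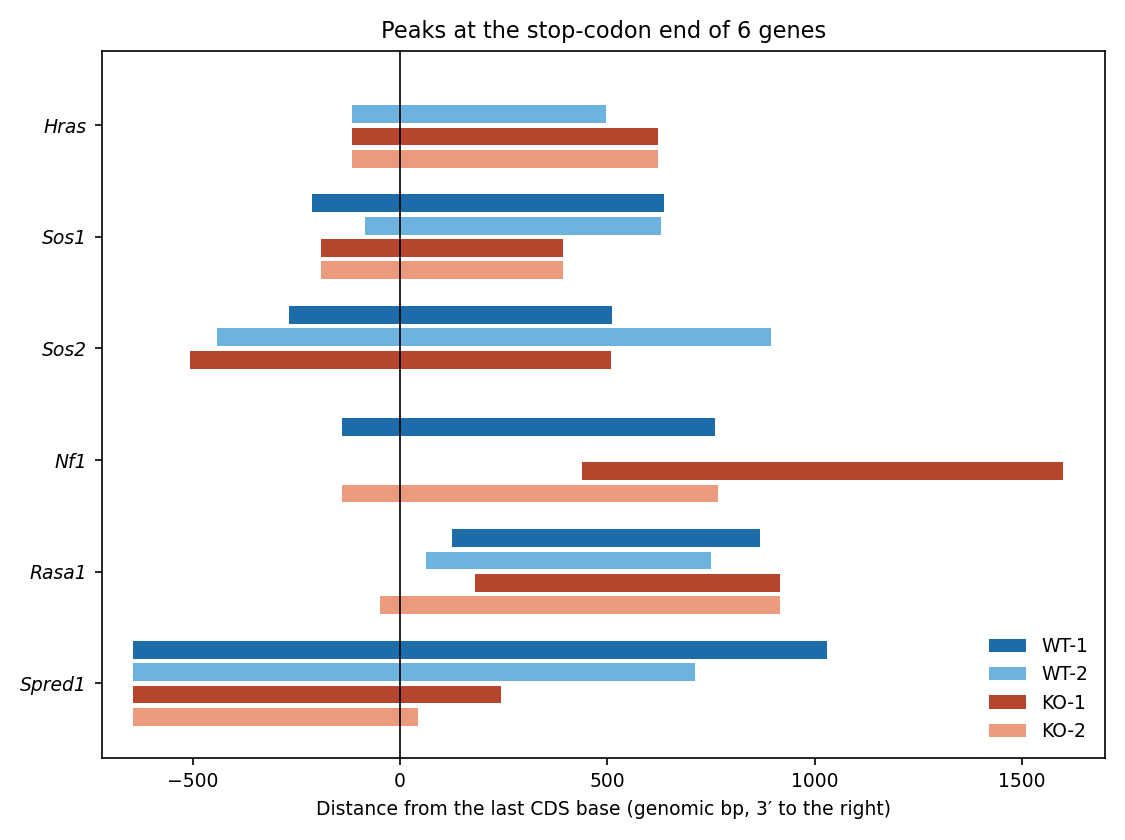
Bars show the peaks of each list at the stop codon end of *Hras*, *Sos1*, *Sos2*, *Nf1*, *Rasa1* and *Spred1*, by genomic distance from the last CDS base in bp (line at 0, 3′ to the right, the *Hras* intron included). The WT peaks reached further than the KO peaks in *Spred1* and *Sos1*. Both KO peaks reached further than every listed WT peak in *Rasa1*, *Hras* and *Nf1*, the last 2 with a peak in 1 WT list. In *Nf1* the KO-2 peak ended at 765 bp, close to the WT-1 peak at 758 bp, and the KO-1 peak lay apart from the CDS.

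Of the 5 regions of the 9 genes with 1 peak in each list, 2 (*Spred1* and the *Sos1* stop codon) had both WT peaks wider than both KO peaks, and 1 (*Sos1* exon 10) had both KO peaks wider. Among the 1806 regions of the series these orders held for 9.75% and 28.8%. By the 3′ edge alone, both WT peaks reached further in the same 2 regions, and both KO peaks reached further in 1 region (*Rasa1*), against 9.30% and 22.4% of the series. The *Sos1* exon 10 peak was 510 ± 23.3 bp (SD, n = 2) wide in WT and 594 ± 0 bp (SD, n = 2) in KO. With 5 regions on 3 genes, these counts describe the genes and are not a test of them as a group.

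**Figure D4:**
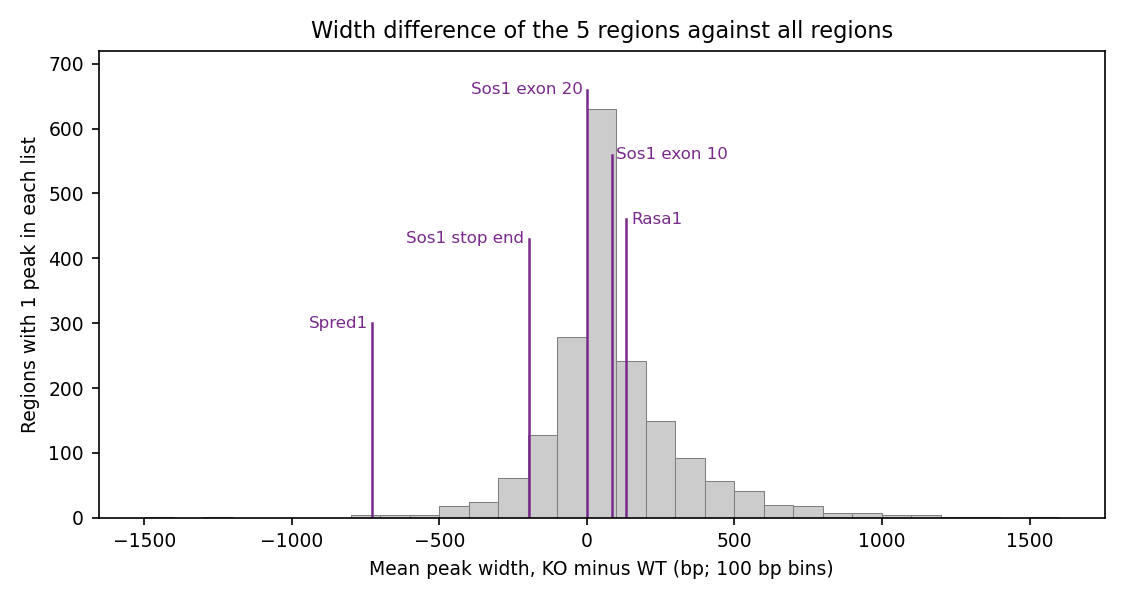
Grey bars count the 1806 regions with 1 peak in each list by the difference in mean peak width, KO minus WT, in bins of 100 bp. Lines mark the 5 regions on *Sos1*, *Rasa1* and *Spred1*, whose heights only space the labels, with *Spred1* at -727.5 bp in the lower tail.

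*Spred2* (chr11:19924375-20024026, plus strand), which encodes a second inhibitor that restrains ERK signalling, had 1 peak in WT-1, 2 peaks in WT-2 and 0 in both KO lists. The difference of -1.5 peaks had p = 0.33 by the two-sided exact permutation test. The WT-1 peak, 301 bp wide, lay at exon 6, with 138 bp in the exon and 163 bp outside every exon of the gene, and it was the 1 of the 36 peaks that was not wholly exonic. The WT-2 peaks lay in exon 7, one of 339 bp in the CDS and one of 376 bp in the 3′-UTR. The gene thus met the presence rule without any region that did, since no base was under a peak of both WT lists. It no longer met the rule when at least 50% of a peak had to be exonic, or when the lists were restricted to the higher-scoring 50%. The *Spred2* CDS held 10 GGAC sites, 6 under a WT peak and 4 under none, and the 6, numbered by base of the longest CDS, are shown with the spliced sequence around them because the WT lists covered different ones:
Spred2 CDS 528, WT-1 (chr11:20018060-20018063): cgacagctacGGACagttcttcta
Spred2 CDS 572, WT-1 (chr11:20018104-20018107): ccgactacgaGGACaatctcctcc
Spred2 CDS 636, WT-1 (chr11:20018168-20018171): cataccccatGGACcattaccacc
Spred2 CDS 810, WT-2 (chr11:20020943-20020946): cagaagacgcGGACtcctacgtgc
Spred2 CDS 882, WT-2 (chr11:20021015-20021018): ttgattcttcGGACttcggcttcg
Spred2 CDS 1095, WT-2 (chr11:20021228-20021231): tgtggtgcgcGGACagcatgctgt
Capitals mark GGAC. The 3 sites in exon 6 were under the WT-1 peak alone, the 3 in exon 7 under the WT-2 peak alone, and the 3′-UTR peak of WT-2 held no GGAC. The WT-1 peak held 1 further GGAC, outside every exon of the gene.

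The paralogs *Spred1* and *Spred2* both had a peak over the coding part of exon 7, in all 4 lists for *Spred1* and in WT-2 alone for *Spred2*. These coding parts, of 645 and 654 bp, were identical at 66.4% of 633 aligned bases and held 2 and 3 GGAC sites, of which 0 were aligned with each other. In WT-2 alone, the paralogs thus shared the place of a peak, and the GGAC sites under it were not aligned. In exon 10 of *Sos1* and *Sos2*, by contrast, 2 GGAC sites were aligned. Among the 270 genes other than *Spred2* that the WT lists alone held, *Pitpnb*, *Inpp5d* and *Lrrc75a* were nearest to it in exonic peak bases per list, at a Euclidean distance of 163, 174 and 182 bp.

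**Figure D5:**
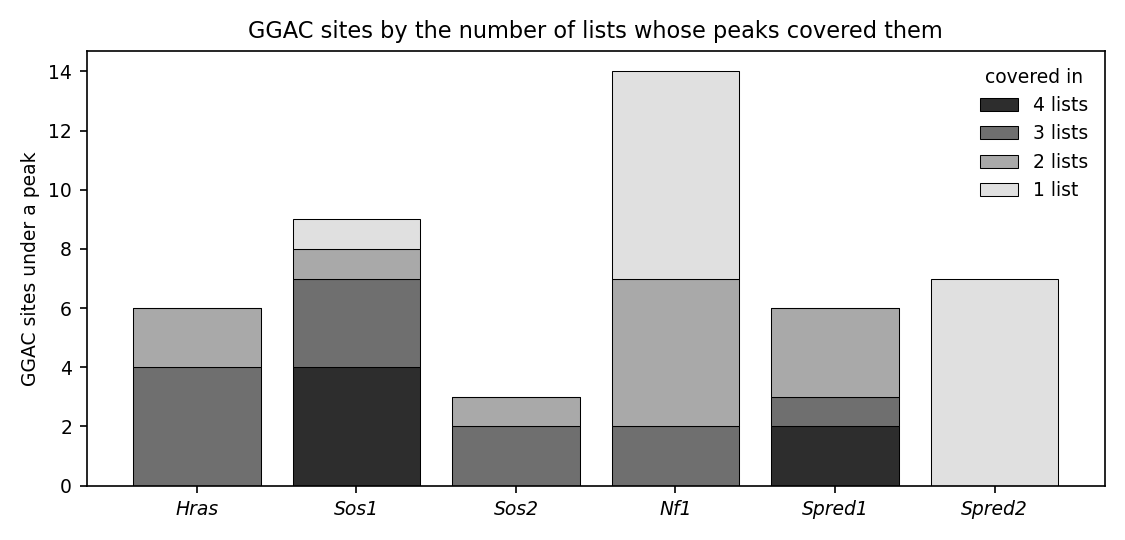
Bars count the GGAC sites under a peak in any list (vertical axis) for the 6 genes that had such sites, shaded by the number of lists whose peaks covered the site. All 7 *Spred2* sites, 1 of them outside every exon of the gene, were covered in 1 list. In contrast, 4 of 9 *Sos1* sites and 2 of 6 *Spred1* sites were covered in 4 lists.

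Over all 36 peaks, 31 (86.1%) held GGAC, against 87.8% of all assigned peaks. In the central 200 bp, GGAC was found in 52.8% of the peaks on the 9 genes and 61.9% of all assigned peaks. The peaks on the 9 genes were wider, with a median of 672 bp against 507 bp. Of the 35 midpoints that could be placed on the longest coding transcript, 15 (42.9%) lay in the CDS, 20 (57.1%) in the 3′-UTR and 0 in the 5′-UTR, where 50.9% and 45.5% of all placed midpoints lay in the CDS and the 3′-UTR. An edge of the peak fell on an exon border in 63.9% of these peaks and in 47.8% of all assigned peaks. Overlapping peaks of different lists are not independent, so these shares carry no test.

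Of 45 other genes of the Ras family and its regulators, 25 had a peak in some list, against 32.1% of all genes. Of the 25, 9 had peaks in all 4 lists, against 30.4% of all genes with a peak. The 9 were *Rap2a*, *Rala*, *Ralb*, *Rapgef2*, *Ralgds*, *Rgl1*, *Gab2*, *Ptpn11* and *Cblb*. The Ral GTPases *Rala* and *Ralb*, their exchange factor *Ralgds*, and *Ptpn11*, which encodes the phosphatase SHP2, were thus listed in every sample. Genes of one kind differed in whether a peak was listed, since the exchange factor gene *Rgl2* had no peak in any list, unlike *Rgl1*. Of the 45 genes, 20 had no peak in any list, and a missing peak is not a measured level of 0. Among the adaptor genes, *Gab2* was in every list, whereas *Grb2*, *Shc1* and *Gab1* had no peak in any. Of these 25 genes, 1 was found in both WT lists alone and 0 in both KO lists alone, where 3.84% and 4.88% of all genes with a peak were, so the count was near the background. The 1 gene was *Rit1*, a Ras-related GTPase, with a 3′-UTR peak of 868 bp in WT-1 and 845 bp in WT-2. Its score exceeded that of 14.6% of the peaks in WT-1 and was 3100 in WT-2, and unlike those of *Spred2* the *Rit1* peaks overlapped between the WT lists.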

How the data were processed

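Total RNA of BMDMs underwent m6A immunoprecipitation (GenSeq m6A RNA IP Kit), and directional libraries were made from IP and input RNA. The authors deposited 1 peak list per sample, in which the value is the peak caller's score, per the file columns without read counts. The submitters' processing notes name cutadapt 1.9.3, HISAT2 2.0.4 and mm10, and the form of the peak names is that of MACS. The peak caller's settings are not given in the sources used here. Scores served only to rank peaks within a list, and scores of 3100 or more were treated as tied.

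Positions were read as GRCm38 and assigned to GENCODE M21 genes by at least 1 bp of same-strand exon overlap. Positions within a gene refer to its longest coding transcript, whose CDS excludes the stop codon. Sequences were read from the RefSeq GRCm38.p6 genome. Peaks of different lists that overlapped by at least 1 bp formed a region. Numbers and widths were compared by the two-sided exact permutation test over 6 labellings. All 9 genes are named, with the Ras family genes present in 1 genotype alone and the 3 nearest genes to *Spred2* and *Sos2*. Other Ras family genes named as present in all lists or absent, and *Pdgfrb* and the other markers, fall outside this rule, having been picked with their values in view. The genes and lists were chosen with earlier results of these data known. Functions were tested on simulated data. The software was Python 3.11.15 with Biopython 1.88 and matplotlib 3.10.9, and samtools 1.23.1. Alternatives were a score limit, an equal number of peaks, other overlaps and exons, each list left out and a replicate block.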

Additional observations from a re-analysis of the deposited data

How the results depend on the processing

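When each list was restricted to its higher-scoring 50% of peaks, 0 of the 9 genes were present in WT alone and 0 in KO alone. Of the 45 Ras family genes, 0 were present in WT alone and 2 in KO alone. Among all genes with a peak in this setting, the shares were 3.14% and 4.17%. The CDS held 50% of the midpoints of the peaks on the 9 genes. With at least 50% of a peak required in exons, 0 of the 9 genes were present in WT alone, and the share over all genes is not given for this setting. A peak in at least 1 list of a genotype and none of the other held for 1 (WT) and 0 (KO) of the 9 genes, 7 of which had a peak. It held for 7 and 1 of the 45 genes, 25 of which had a peak. Of all genes with a peak, 22.5% and 18.4% were called. Of the regions of the 9 genes, 3 (WT) and 1 (KO) were called. With a list left out, the genes of the 9 present in WT alone numbered 1 to 2 and in KO alone 0 to 1, since *Sos2* joined WT without KO-1, *Nf1* joined KO without WT-1 and *Hras* joined KO without WT-2, while 7.18% to 15.5% (WT) and 10.9% to 13.4% (KO) of all genes with a peak were called. The regions numbered 0 to 2 and 0 to 1, and the 45 genes 1 to 6 and 0 to 4. The share of all regions present in 1 genotype alone is given for the main setting only. The difference in peak number ranged from -2.5 to 0.5, the change of sign being without KO-2, and was -1 with a replicate block. The replicate block gave 2 and 2 of the 9 genes and 9 and 6 of the 45 genes for WT and KO alone. Of all genes with a peak, 28.5% and 29.2% were called. Of the regions of the 9 genes, the replicate block gave 5 (WT) and 3 (KO). The replicate numbers were not shown to pair the samples (correlation 0.00733 of the differences between replicates over 12350 regions). GGAC was in 52.8% of the central 200 bp windows, and GGACT was in 41.7% of the peaks. Regions with wider WT peaks numbered 2 with an equal number of peaks per list and with each list left out, alternatives chosen after seeing the data. With a list left out they were 2 of 5 to 7 regions, while the share over all regions rose from 9.75% to between 13.5% and 23.4%. Where fewer peaks or lists enter, counts change by construction; otherwise the cause was not tested. Read counts are not part of the lists, and the depth behind a missing peak is unknown.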
